A study of Mus musculus with 27 samples.

Results

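The lysozyme genes Lyz1 and Lyz2 were followed on bead arrays of myeloid cells from the inflamed mouse colon and of splenic T cells. Probes were chosen by their symbol in the deposited intensity table, Lyz1, Lyz2 or Lyz, which gave 4 probes of 45281, under 3 of 30869 symbols. The gene was chosen because Lyz1 differed between Mbd2-/- and WT monocytes and macrophages in these same arrays, so those 2 contrasts are given as values with no test. Lyz1 had the probes ILMN_2736867 and ILMN_1247933, Lyz2 had ILMN_1252076, and Lyz had ILMN_2878071, whose listed accession is an earlier version of the Lyz1 RefSeq transcript. A further 2 probes are listed as Lyzs, an older symbol, with the RefSeq accession of Lyz2. They were not members and are set beside the Lyz2 probe under their own name. Probe sequences were not used here, so whether a probe can bind both lysozyme transcripts was not tested.

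The study compared Mbd2-/- mice with co-housed WT littermates after 2% dextran sulfate sodium (DSS), a polymer in the drinking water that injures the colon epithelium. Monocytes were sorted from the colon as Ly6C+ CD11b+ cells without F4/80, and macrophages as Ly6C- CD11b+ cells with F4/80 and MHC-II. Each gave 5 arrays per genotype. Dendritic cells labelled CD11bnegDC, the CD103+ cDC1s of the study, gave 2 WT and 3 Mbd2-/- arrays. Spleen CD4+ T cells of a transfer model of colitis, taken 6 weeks after transfer, gave 1 array per genotype. Mbd2-/- mice lack methyl-CpG-binding domain protein 2 in all tissues and not only in the sorted cells. The paper states that RNA of several mice could be pooled for an array, and which arrays came from the same experiment is not given in the sources used here, so p-values measure only the spread between these arrays.

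Lysozyme is a small secreted enzyme that cuts the sugar backbone of peptidoglycan, the polymer of the bacterial cell wall. Mice carry a pair of lysozyme genes side by side. Lyz1, also called P lysozyme, is known as the form of Paneth cells at the base of small intestinal crypts, and Lyz2, also called M lysozyme, as the form of monocytes, macrophages and neutrophils. MBD2 binds methylated CpG dinucleotides and recruits a repressor complex, so the CpGs before the start sites of both genes are shown first.

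In the RefSeq table of GRCm38.p6 both genes lie on the minus strand of chromosome 10, with 0 annotated genes between them. The 250 bases before each start are printed 5′ to 3′, with CpG dinucleotides in capitals, because both genes are compared throughout and MBD2 reads this dinucleotide. They cover chr10:117292869-117293118 for Lyz1 and chr10:117282273-117282522 for Lyz2.
Lyz1: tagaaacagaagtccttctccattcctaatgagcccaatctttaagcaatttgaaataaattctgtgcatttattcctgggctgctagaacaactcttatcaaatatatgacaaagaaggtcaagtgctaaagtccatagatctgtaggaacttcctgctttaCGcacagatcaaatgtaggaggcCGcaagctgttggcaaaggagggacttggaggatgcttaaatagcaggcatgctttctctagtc
Lyz2: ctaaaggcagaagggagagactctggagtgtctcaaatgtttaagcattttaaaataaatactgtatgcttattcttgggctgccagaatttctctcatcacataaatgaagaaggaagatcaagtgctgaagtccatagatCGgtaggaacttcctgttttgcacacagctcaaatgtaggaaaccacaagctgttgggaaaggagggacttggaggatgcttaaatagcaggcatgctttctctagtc

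The bases nearest the start were almost the same in both genes. Of the 100 bases before the start, 92 were identical without gaps, and over all 250 bases a gapped alignment paired 248 bases, of which 200 (80.6%) were identical. Lyz1 had 2 CpGs, at -87 and -64 counted from the start, and Lyz2 had 1, at -108. Both counts were low: 29.0% of 32851 promoter windows of the same length held 2 or fewer and 18.8% held 1 or 0, against a median of 6. None of the CpGs had a CpG at the same distance in the other gene. On both strands TATAAA was found in 0 windows of either gene (12.4% of all windows held it), and GAGGAA, a core of PU.1 sites, likewise in 0 (23.3%). TTNNGNAA, a core of C/EBP sites, occurred once in each, at -209 in Lyz1 and at -55 in Lyz2 (36.8% of windows). CCAAT occurred at -216 in Lyz1 and not in the Lyz2 window (33.8%). A match is a run of letters and not a site shown to be used, and methylation was not measured here.

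**Figure D1:**
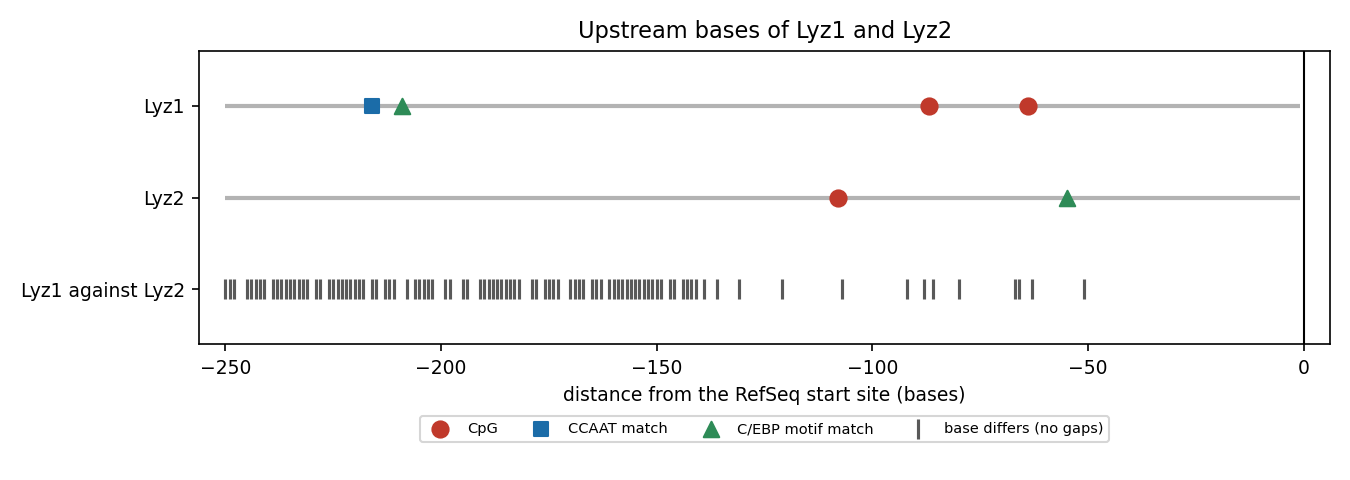
Position of CpGs and motif matches in the 250 bases before the RefSeq start of Lyz1 and Lyz2 (x axis, bases from the start), with a tick where the bases of both genes differ in a comparison without gaps. Lyz1 has CpGs at -87 and -64 and Lyz2 at -108, and 8 of the nearest 100 bases differ.

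All 27 arrays detected between 16024 and 18608 probes (detection p under 0.05), and mean intensity per array ran from 172 to 353. The colon labels went with the markers of each cell type: the summed intensity of 16 macrophage probes was 42963 to 67604 on macrophage arrays, 20986 to 40092 on monocyte arrays and 1347 to 3305 on cDC1 arrays, and that of 19 cDC1 probes was 14389 to 38225 on cDC1 arrays and at most 4562 on the other colon arrays. The single Mbd2 probe was detected on 0 of 27 arrays, so the deletion could not be checked. Levels below are deposited intensities, and differences are fitted on normalized log2 intensity (limma), called at an adjusted p under 0.05 and a log2 difference of at least 1. Arrays are named by their number in the labels. Where arrays of groups are said to overlap or not on a probe, this describes their values. How many of all probes separate without overlap was not counted, so nothing is read from such a separation. In sorted bulk cells, a lower share of one cell type and less RNA per cell cannot be told apart.

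Lyz1 rose from monocytes to macrophages and was low in cDC1s by the probe ILMN_2736867. In WT monocytes the intensities were 842, 569.5, 476, 791 and 456, and in WT macrophages 1877, 1754, 2058, 3481 and 2218. All 5 macrophage arrays lay above all 5 monocyte arrays. WT cDC1s had 545 and 423, inside the range of WT monocytes apart from the lower array. Mbd2-/- monocytes had 1768, 1304, 1509, 2414 and 2610.3, Mbd2-/- macrophages 3959.8, 3484, 4538.5, 4797 and 3381, and Mbd2-/- cDC1s 460.2, 169.9 and 325. Within Mbd2-/- mice the 3 cell types did not overlap, with macrophages highest and cDC1s lowest. The share of all probes that separate in these ways was not counted.

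On the normalized log2 scale the order of the groups for this probe was Mbd2-/- macrophages at 11.93 ± 0.20 (SD, n = 5), WT macrophages at 10.96 ± 0.40 (n = 5), Mbd2-/- monocytes at 10.78 ± 0.22 (n = 5), WT monocytes at 8.74 ± 0.43 (n = 5), Mbd2-/- cDC1s at 8.61 ± 0.68 (n = 3) and WT cDC1s at 8.51 ± 0.15 (n = 2). WT macrophages (10.27 to 11.25) and Mbd2-/- monocytes (10.49 to 11.04) overlapped, as did WT monocytes and both cDC1 groups. The other neighbours in this order did not overlap.

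The fit put WT macrophages 2.22 ± 0.22 (SE) above WT monocytes on the log2 scale for this probe, 4.66-fold, with an adjusted p of 1.2e-07. It was the only one of the 4 probes called in that comparison, where 4.62% of all tested probes were called. In Mbd2-/- mice the same step was 1.15 ± 0.22, 2.22-fold (adjusted p = 0.00045), again the only one of the 4 called, against 5.59% of all. The WT and Mbd2-/- steps differ by the same amount as the genotype differences of monocytes and macrophages, on which Lyz1 was chosen, so their difference was not tested. Summed intensity of 15 neutrophil probes was 3224 to 8858 on WT monocyte arrays and 819 to 3944 on WT macrophage arrays, while this Lyz1 probe rose. The neutrophil list was mixed: the median of S100a8 fell from 3592 to 740, and that of Retnlg rose from 463 to 592. Of its 7 genes tested, 2 were called lower in WT macrophages and 1 higher, against 2.15% and 2.47% of all tested probes.

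The difference of cDC1s from macrophages was -2.45 ± 0.30 in WT mice, 5.46-fold (adjusted p = 5.9e-07), and -3.31 ± 0.26 in Mbd2-/- mice, 9.94-fold (adjusted p = 3.2e-10). Mbd2-/- cDC1s differed from Mbd2-/- monocytes by -2.16 ± 0.26, 4.47-fold (adjusted p = 2.9e-07). Lyz1 was chosen on its genotype difference in monocytes and macrophages. The cell type comparisons of both Lyz1 probes use those same arrays, so their p-values are not independent of the choice. WT cDC1s against WT monocytes gave -0.23 with a 95% interval from -0.84 to 0.38 (adjusted p = 0.59), so differences of that size in either direction were not resolved.

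The second Lyz1 probe, ILMN_1247933, was also highest in Mbd2-/- macrophages and then in Mbd2-/- monocytes, with far more spread. Its intensities were 115 to 230.1 on WT monocyte arrays and 101, 186, 225, 234 and 460.2 on WT macrophage arrays, where array 12 was lowest at 101. Mbd2-/- monocytes had 196, 351, 495, 516 and 787, and Mbd2-/- macrophages 329, 842, 905, 2388 and 3405. WT cDC1s had 159 and 301, and Mbd2-/- cDC1s 92.2, 121 and 201. On the normalized log2 scale the SD of Mbd2-/- macrophages was 1.58 on this probe and 0.20 on the other (n = 5), and WT monocytes, WT macrophages and both cDC1 groups overlapped on it.

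With that spread the step from monocytes to macrophages was not called on ILMN_1247933: it was 0.99 ± 0.65 in WT (adjusted p = 0.31) and 1.53 ± 0.66 in Mbd2-/- mice (adjusted p = 0.088). The WT value was 1.55 without WT macrophage array 12 and 0.60 without WT macrophage array 15, and the Mbd2-/- step was called without Mbd2-/- macrophage array 17 (2.02, adjusted p = 0.023). Mbd2-/- cDC1s differed from Mbd2-/- macrophages by -3.52 ± 0.76 (adjusted p = 0.00053) and from Mbd2-/- monocytes by -1.98 ± 0.76 (adjusted p = 0.035). The last call was lost when any of 5 arrays was left out (Mbd2-/- monocyte arrays 6, 9 and 10 and Mbd2-/- cDC1 arrays 28 and 30), with adjusted p up to 0.19.

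The Lyz probe ILMN_2878071 was among the brightest of the array in colon cells. Between 13 and 201 of the 45281 probes were brighter on the 25 colon arrays, and its intensity reached 26.7% to 78.0% of the brightest probe. It read 9278 to 15062 on monocyte arrays, 12184 to 13117 on macrophage arrays, 9983 and 12250 on WT cDC1 arrays and 3955, 7317 and 8956 on Mbd2-/- cDC1 arrays. Monocytes and macrophages overlapped in both genotypes, with log2 differences of 0.15 ± 0.08 in WT (adjusted p = 0.21) and 0.08 ± 0.08 in Mbd2-/- mice (adjusted p = 0.51).

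Mbd2-/- cDC1s were lower on it, with differences of -0.51 ± 0.10 against Mbd2-/- monocytes (adjusted p = 0.00013) and -0.60 ± 0.10 against Mbd2-/- macrophages (adjusted p = 2.1e-05), both under the minimum difference for a call. With cyclic loess in place of quantile scaling these were -0.05 and -0.27 (adjusted p = 0.87 and 0.24). The 3 probes that carry a Lyz1 accession therefore gave steps of 2.22, 0.99 and 0.15 from WT monocytes to WT macrophages. The last is that of the Lyz probe, and whether a probe so bright can show larger steps was not tested.

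**Figure D2:**
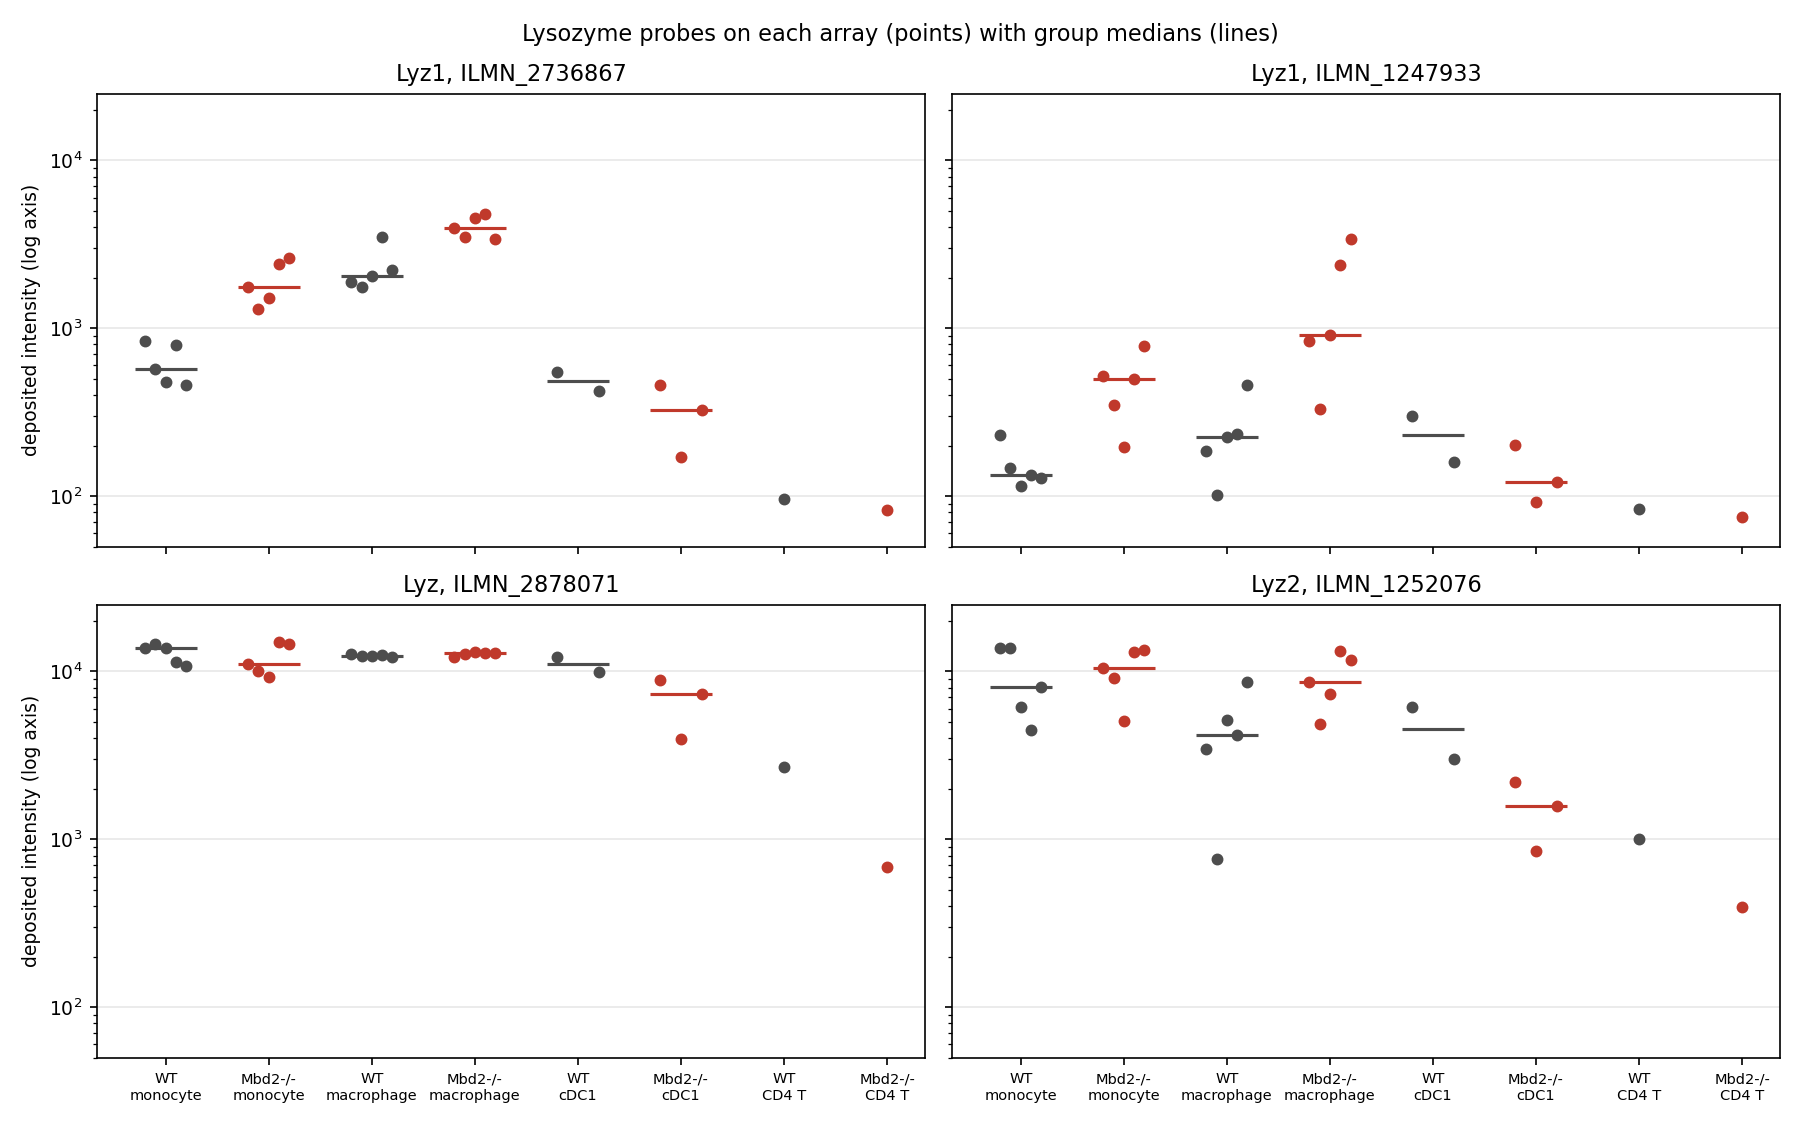
Deposited intensity (y axis, log scale) of the 4 lysozyme probes on each of 27 arrays, by cell type and genotype (grey WT, red Mbd2-/-), with points for arrays and lines for group medians. Lyz1 ILMN_2736867 is higher in macrophages than in monocytes of the same genotype, and the Lyz probe is between 9278 and 15062 on all monocyte and macrophage arrays.

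Lyz2 was detected on all arrays, and its difference between monocytes and macrophages was not called in either genotype. On the probe ILMN_1252076, WT monocytes had 13755, 13847, 6154, 4489 and 8086, and WT macrophages 3455, 761, 5141, 4176 and 8667. The groups overlapped, and WT macrophage array 12 stood lowest of all 25 colon arrays. Mbd2-/- monocytes had 10498, 9116, 5074, 13020.5 and 13374, Mbd2-/- macrophages 8622, 4840.4, 7308, 13220.5 and 11733, WT cDC1s 6118 and 2994, and Mbd2-/- cDC1s 2184, 856 and 1571. All 3 Mbd2-/- cDC1 arrays lay below every Mbd2-/- monocyte and macrophage array, and the share of all probes that separate in this way was not counted.

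The fitted step from WT monocytes to WT macrophages was -1.19 ± 0.52 on the log2 scale (adjusted p = 0.099), and -0.20 ± 0.52 in Mbd2-/- mice (adjusted p = 0.83). Without WT macrophage array 12 the WT value was -0.54, and without WT macrophage array 15 it was -1.55 and called (adjusted p = 0.032). Mbd2-/- cDC1s differed from Mbd2-/- monocytes by -2.02 ± 0.60 (adjusted p = 0.0077) and from Mbd2-/- macrophages by -1.82 ± 0.60 (adjusted p = 0.016), and the latter was not called without Mbd2-/- cDC1 array 28 (adjusted p = 0.074). With both Lyz1 probes this made 3 of 4 lysozyme probes called lower in Mbd2-/- cDC1s than in Mbd2-/- monocytes, where 9.37% of all tested probes were. It was also 3 of 4 against Mbd2-/- macrophages, where 9.04% of all were called lower. Lyz1 was chosen on contrasts that use these same monocyte and macrophage arrays, so nothing was read from these counts.

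In WT mice the Lyz2 difference of cDC1s was not called, and whether it differs from that in Mbd2-/- mice was not tested. It was -0.77 against monocytes, with a 95% interval from -2.19 to 0.64, and 0.42 against macrophages, with an interval from -0.99 to 1.84. None of the 4 probes was called between WT cDC1s and WT monocytes (16.8% of all were), and only Lyz1 ILMN_2736867 between WT cDC1s and WT macrophages (17.7% of all). In the first comparison 0 of the 4 also passed an unadjusted p under 0.05 in limma. How many of all probes passed that threshold was not counted, so nothing is read from it.

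The Lyzs probes, with an accession of Lyz2, were lower in cDC1s than in the other colon cells in both genotypes. ILMN_2939681 read 5724 to 10690.2 on monocyte and macrophage arrays, 3047 and 3932 on WT cDC1 arrays and 1299, 2162 and 2865 on Mbd2-/- cDC1 arrays. WT cDC1s differed on it from WT monocytes by -1.05 ± 0.18 (adjusted p = 4.9e-05), and Mbd2-/- cDC1s from Mbd2-/- macrophages by -1.16 ± 0.16 (adjusted p = 1.7e-06). The difference of WT cDC1s from WT macrophages, -0.88 ± 0.18 (adjusted p = 0.00038), was under the minimum for a call. ILMN_2766780 was called in all 4 comparisons of cDC1s with monocytes or macrophages, with differences from -2.41 ± 0.24 to -2.19 ± 0.21. Its deposited cDC1 intensities, 80.8 to 111, were near background, and 1 of 3 Mbd2-/- cDC1 arrays did not detect it. From monocytes to macrophages neither probe moved by more than 0.17 in either genotype, and 95% intervals lay within -0.49 and 0.38.

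**Figure D3:**
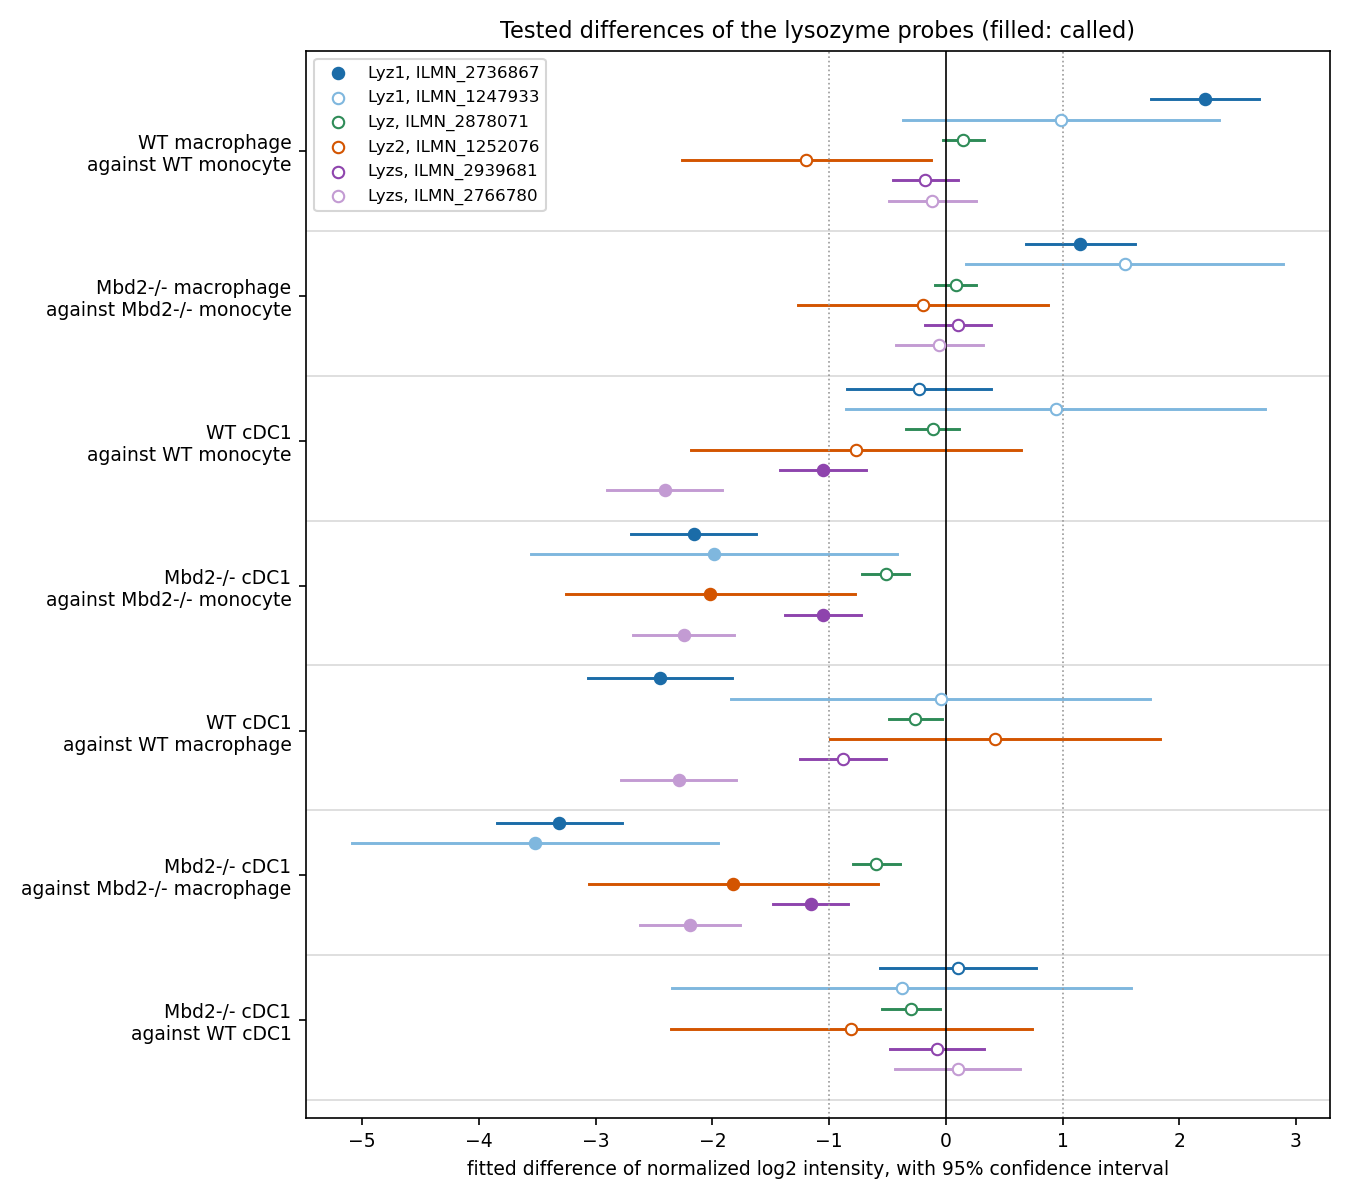
Fitted difference of normalized log2 intensity (x axis) with its 95% confidence interval for the 6 lysozyme probes in the 7 comparisons that were tested, filled where called and dotted at the minimum difference of 1. ILMN_2736867 of Lyz1 is right of 0 in both monocyte to macrophage comparisons and left of 0 in both cDC1 to macrophage comparisons.

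The probes listed as Lyz1 and the Lyz2 probe changed unequally between the same WT monocyte and macrophage arrays. The within-array difference of Lyz1 ILMN_2736867 minus Lyz2 ILMN_1252076 had a mean of -4.05 ± 0.92 (SD, n = 5) on WT monocyte arrays, from -4.97 to -2.56, and of -0.64 ± 1.27 (n = 5) on WT macrophage arrays, from -2.02 to 1.33. The groups did not overlap, and the shift of 3.41 had p = 0.0079 in a two-sided exact permutation test, the smallest p that 5 against 5 arrays allow. With the other Lyz1 probe the shift was 2.18, and with either Lyzs probe in place of Lyz2 it was 2.39 and 2.34, with the same exact p. Lyz1 was chosen on contrasts that use these same WT arrays, so these p-values are not independent of the choice. Both Lyzs versions use the same Lyz1 values as the first test and are not separate support. A shift of a within-array difference shows unequal change and not which probe changed. The Lyz probe, which also carries a Lyz1 accession, was not tested in this way. Its WT step was 0.15, and those of the Lyzs probes were -0.17 and -0.12.

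Between genotypes, cDC1s showed no called lysozyme difference. Mbd2-/- against WT gave 0.11 for Lyz1 ILMN_2736867 (95% interval -0.57 to 0.78), -0.38 for ILMN_1247933 (-2.34 to 1.58), -0.81 for Lyz2 (-2.36 to 0.74) and -0.30 for Lyz (-0.54 to -0.05). None of the 4 was called by limma, where 1.87% of all tested probes were. At an unadjusted p under 0.05 limma gave 1 of the 4, the Lyz probe, with an adjusted p of 0.13. The share of all probes at that unadjusted threshold was not counted, so nothing is read from this count. The intervals of Lyz2 and of the second Lyz1 probe reached past -2 on the log2 scale, so these arrays left wide limits. On the Lyz and Lyz2 probes the 3 Mbd2-/- arrays lay below both WT arrays. How many of all probes separate in this way was not counted, so nothing is read from it. With cyclic loess the Lyz difference was 0.0022.

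In monocytes and macrophages, the contrasts on which Lyz1 was chosen, the values were as follows. In monocytes Mbd2-/- arrays were higher by 2.04 ± 0.22 (SE) on Lyz1 ILMN_2736867 and by 2.55 ± 0.66 on ILMN_1247933. The genotypes did not overlap on either probe in normalized values, and the deposited intensities overlapped on ILMN_1247933 only. In macrophages the same differences were 0.97 ± 0.22 and 3.09 ± 0.65. Normalized values did not overlap on ILMN_2736867 and overlapped on ILMN_1247933, while deposited intensities overlapped on both. Without background correction the monocyte difference on ILMN_1247933 was 1.70. The Lyz probe differed by 0.11 ± 0.08 and 0.04 ± 0.08 in monocytes and macrophages. Lyz2 differed by 0.44 ± 0.52 and 1.44 ± 0.52 and overlapped between genotypes in both, while the Lyzs probes differed by at most 0.20. Over all probes tested, 0.432% were called between Mbd2-/- and WT monocytes and 1.49% between macrophages, and nothing is read from these shares for the lysozyme probes.

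Genes of Paneth and other secretory epithelial cells were set beside these values because Lyz1 is a Paneth cell gene. The summed intensity of the 39 probes of that list was 3406 to 4864 on WT and 4648 to 14268 on Mbd2-/- monocyte arrays, and 2454 to 5064 on WT and 4111 to 14937 on Mbd2-/- macrophage arrays. Of 5 genes tested, 2 were called higher in both cell types, against 0.327% of all tested probes in monocytes and 1.37% in macrophages. Between cDC1 genotypes, where neither Lyz1 probe was called, 1 of 6 tested genes of this list was called higher, against 0.751% of all. Reg3b and Reg3g encode secreted antibacterial lectins. Reg3b was higher by 1.38 ± 0.28 in monocytes (adjusted p = 0.0085) and 1.28 ± 0.28 in macrophages (adjusted p = 0.012). Reg3g was higher by 1.58 ± 0.35 (adjusted p = 0.018) and 1.66 ± 0.35 (adjusted p = 0.010). Without these genes the summed intensity was 100.2 to 733 on WT and 67.8 to 363 on Mbd2-/- monocyte arrays, and 106 to 717 on WT and 72.5 to 496 on Mbd2-/- macrophage arrays. None of the 28 probes named for alpha-defensins, the defining Paneth cell peptides, was detected on most arrays of any colon group. Mmp7, the protease that matures them, was detected on 2 of 25 colon arrays and Itln1 on 0. Other genes of the list were detected: Ang4, an antibacterial ribonuclease, on 5 WT and 4 Mbd2-/- monocyte arrays and on 4 WT and 5 Mbd2-/- macrophage arrays, and Mptx1, a mucosal pentraxin, on 4, 2, 4 and 4. Ang4 differed between genotypes by 0.01 ± 0.34 in monocytes and 0.07 ± 0.34 in macrophages, and Mptx1 by -1.56 ± 0.71 and -1.59 ± 0.70 (adjusted p = 0.32 and 0.17). The summed intensity of 18 epithelial probes overlapped between genotypes in both cell types. It was 10013 to 32463 on WT (median 19996) and 10420.1 to 23681 on Mbd2-/- monocyte arrays (median 15041), and 10681 to 21278 on WT (median 12418) and 9437 to 30895 on Mbd2-/- macrophage arrays (median 19915). The summed intensity of neutrophil probes was 3224 to 8858 on WT and 6849 to 9330 on Mbd2-/- monocyte arrays, and 819 to 3944 on WT and 1364 to 6248 on Mbd2-/- macrophage arrays. The part of epithelial or neutrophil RNA in the Lyz1 difference was not tested.

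Splenic CD4+ T cells had little signal on either probe with the symbol Lyz1. Their 10 CD4 T cell marker probes summed to 34021 in WT and 18931 in Mbd2-/- cells, against at most 3855 on colon arrays. ILMN_2736867 read 96.3 in WT cells, where it was detected, and 82.1 in Mbd2-/- cells, where it was not, and ILMN_1247933 was detected in neither. The Lyz probe, which carries a Lyz1 accession, was detected in both and read 2687 in WT and 687 in Mbd2-/- T cells. Lyz2 read 1007 and 393. Each genotype had 1 array, so there was no replicate check and no test. Neutrophil probes differed in the same direction between these arrays, with a summed intensity of 25588 in WT and 2921 in Mbd2-/- T cells, including S100a8 at 13056 and 1561. Monocyte probes summed to 2840.4 and 2210.3. The part of other myeloid cells in the T cell lysozyme signal was not tested.

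Within a group, arrays varied together on some lysozyme probes and not on others. Over deviations of the 25 colon arrays from their group means, Pearson's r was 0.83 between Lyz1 ILMN_1247933 and Lyz2, and 0.80 without WT macrophage array 12. It was 0.62 between both Lyz1 probes, and 0.45 between Lyz1 ILMN_2736867 and Lyz2, or 0.16 without array 12. The Lyzs probes, whose accession is that of the Lyz2 gene, had r of 0.30 and 0.04 with it. These are descriptions over arrays that share one normalization. The standard error over the beads of a lysozyme probe on a colon array had a median of 3.93% of the intensity and was at most 11.5%.

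**Figure D4:**
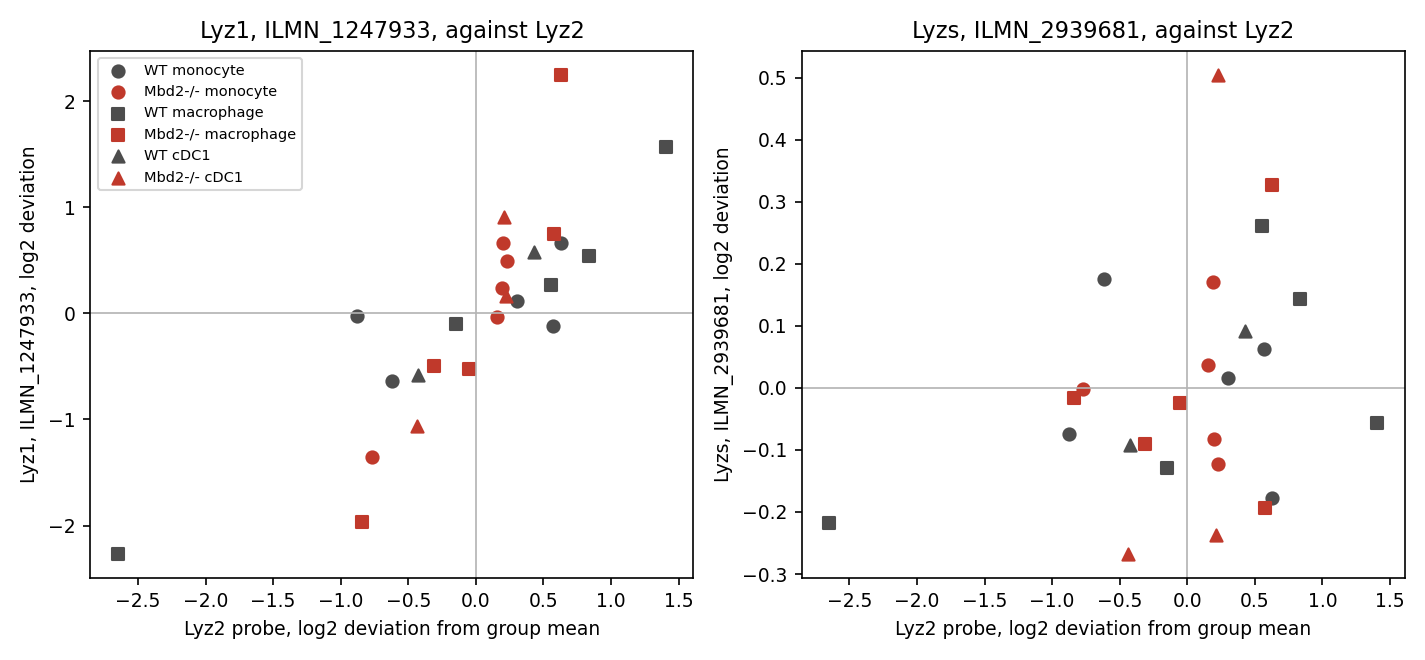
Deviation of each of 25 colon arrays from its group mean, in log2 units, for Lyz2 (x axis) against Lyz1 ILMN_1247933 (left) and against Lyzs ILMN_2939681 (right), with cell types as symbols and genotypes as colours. Lyz2 and ILMN_1247933 deviate together (r = 0.83), and Lyz2 and the Lyzs probe do so less (r = 0.30).

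The genes most like Lyz1 ILMN_2736867 across the 25 colon arrays were Vcam1, an adhesion molecule (r = 0.95), Hebp1, a heme binding protein (r = 0.92), Art2b (r = 0.88), Gbp2b, an interferon-induced GTPase listed as Gbp1 (r = 0.88), and Mag (r = 0.88). In deviations from group means the nearest were Ggct, Pilra, I830077J02Rik, Treml4 and Ints9, with r from 0.83 to 0.75. The genes most like Lyz2 were Crlf3, Irf2bp2, Frrs1, Idh1 and Hpse, with r from 0.95 to 0.93. In deviations they were Atp5pb, a subunit of the mitochondrial ATP synthase (r = 0.97), Dhrs7, Gm5560, LOC100043257 and Coq10b (r = 0.95). Since WT macrophage array 12 lay farthest from its group on Lyz2, r was also computed without it, an alternative chosen after the data were seen, and was 0.94 for Atp5pb and 0.90 to 0.93 for the other 4.

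The wider lysozyme family was hardly seen in these cells. It had 8 genes with a probe (Lyzl1, Lyzl4, Lyzl6, Lyg1, Lyg2, Spaca3, Spaca5 and Lalba). Between WT cDC1s and WT macrophages 1 of them passed the filter on dim probes, with a difference of -0.26 that was not called. In every other comparison 0 passed. Among genes that sense or handle peptidoglycan and other wall products, 12 of 15 were tested between WT macrophages and WT monocytes. Of these 2 were called higher in macrophages and 0 lower, where 2.47% of all tested probes were called higher: Aoah, which removes acyl chains from bacterial lipopolysaccharide, by 1.02 ± 0.12 (adjusted p = 1.5e-06), and Nagk, the N-acetylglucosamine kinase, by 1.12 ± 0.11 (adjusted p = 1.1e-07). Both lay close to the minimum difference: with an offset of 50 they were 0.96 and 0.97 and not called, and Aoah also fell under it in 3 of 10 fits with 1 array left out. The median of the list was -0.20, against 0.00 over all tested probes.

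Other antibacterial effectors of myeloid cells were lower in macrophages where they were called, while Lyz1 ILMN_2736867 was higher. Of 20 genes tested, 7 were called lower in WT macrophages than in WT monocytes and 0 higher, against 2.15% of all called lower and 2.47% higher, with a list median of -0.50. The largest were Chil3, a chitinase-like lectin (-5.55 ± 0.32), Slpi, a protease inhibitor with antibacterial activity (-2.98 ± 0.23), Prtn3, a granule protease (-2.68 ± 0.19), and S100a8, a subunit of calprotectin (-2.06 ± 0.39). Their adjusted p-values ran up to 0.00044. The others were S100a9, Lcn2 and Acod1, and Acod1 lost its call in 5 of 10 fits with 1 array left out. S100a8 and S100a9 are also in the neutrophil list, whose summed intensity was 3224 to 8858 on WT monocyte and 819 to 3944 on WT macrophage arrays. Of the 7 genes tested in that list, 2 were called lower and 1 higher. The part of neutrophil RNA in these differences was not tested. Of the 10 transcription factors tested from the list that regulates myeloid genes, 0 were called. Their median was -0.07.

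Between genotypes 0 or 1 gene was called in each of the peptidoglycan, effector and transcription factor lists. Nothing was read from such counts beside the share over all probes. In monocytes, where 0.432% of all probes were called, it was 1 of 22 effectors, Chil1, a chitinase-like protein, higher by 1.13 ± 0.21 in Mbd2-/- cells (adjusted p = 0.0050), with 0 of 12 peptidoglycan genes and 0 of 10 transcription factors. Chil1 was under the minimum difference with an offset of 50 (0.72) or median scaling (0.95). In macrophages, where 1.49% of all were called, it was 0 of 19 effectors, 0 of 12 peptidoglycan genes and 0 of 11 transcription factors. Without the minimum difference 3 genes passed in macrophages, Nod2 at -0.52, Prtn3 at -0.71 and Cebpe at -0.68, which are named here after their values were seen. At that threshold 5.66% of all tested probes passed in macrophages. Cebpe also passed that threshold in monocytes, in the opposite direction (0.64 ± 0.15, adjusted p = 0.027), and the difference between the cell types was not tested. In cDC1s, where 1.87% of all were called, 1 of 19 effectors and 1 of 9 transcription factors were called: Ltf, lactoferrin, was higher by 1.07 ± 0.30 (adjusted p = 0.035) and Ets2, a transcription factor, by 1.14 ± 0.11 (adjusted p = 6.3e-06, and 0.66 and not called with median scaling). The call of Ltf was lost in 4 of 5 fits with 1 array left out. Ltf is also in the neutrophil list, whose summed intensity was 673 to 747 on WT and 490 to 2100 on Mbd2-/- cDC1 arrays.

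Of the genes beside the lysozyme pair on chromosome 10, Mdm2, which encodes a ubiquitin ligase of p53, was called lower in cDC1s, and no other was called in any of the 9 comparisons. The 10 nearest genes with a probe are Lrrc10, Cct2, Frs2, Yeats4 and 9530003J23Rik on one side and Cpsf6, Kifc5c-ps, Cpm, Mdm2 and Slc35e3 on the other, with 19 probes. Between macrophages and monocytes 0 of 11 tested probes were called in WT mice, against 4.62% of all, and 0 of 12 in Mbd2-/- mice, against 5.59%. Between genotypes it was 0 of 11 in monocytes, against 0.432%, and 0 of 12 in macrophages, against 1.49%. Nothing was read from counts of 0 among so few probes. Without the minimum difference 2 passed between WT macrophages and WT monocytes, Slc35e3 at 0.45 ± 0.10 and 1 of 2 tested Mdm2 probes, ILMN_2850753, at -0.41 ± 0.10. At that threshold 23.6% of all tested probes passed.

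Between cDC1s and the other colon cells 2 of 11 or 12 neighbour probes were called in each of the 4 comparisons, where 16.8% to 18.0% of all were, and both were probes of Mdm2. Mdm2 ILMN_2850753 differed by -1.49 and -1.08 between WT cDC1s and WT monocytes and macrophages, and by -2.61 and -2.19 in Mbd2-/- mice. ILMN_1250774 differed by -1.92 and -1.84 in WT and by -2.46 and -1.99 in Mbd2-/- mice. Lyz1 ILMN_2736867 was called lower in 3 of these 4 comparisons. Between cDC1 genotypes ILMN_2850753 differed by -1.03 ± 0.14 (adjusted p = 0.00030), 1 of 12 neighbour probes called against 1.87% of all, a call lost without background correction or with an offset of 50, and ILMN_1250774 by -0.32 ± 0.21 (adjusted p = 0.35).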

How the data were processed

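RNA of sorted cells was hybridised by the study to Illumina MouseWG-6 bead arrays. The authors deposited intensities per probe from GenomeStudio with no normalization or background subtraction, a detection p-value against the negative control probes of the array, and a standard error over beads of the same signal. The labels name lumi and limma. The deposited table also holds 3 arrays of no sample, which were not used.

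Intensities of 25 colon arrays were background corrected by normexp with negative controls inferred from detection p-values (offset 16), quantile normalized and put on the log2 scale. limma 3.58.1 in R 4.3.3 fitted 6 groups together, with Benjamini-Hochberg adjustment over the probes kept in a comparison, those detected (p under 0.05) on n or more of its arrays, n being the size of the smaller group. The fit was tested on simulated data. Gene names were updated through RefSeq (27655 of 36692 probes with an accession matched), which also gave the promoters. Summed marker intensities are above the median negative control. The members and gene lists were chosen with earlier results of these data known. Named genes were the members, the 5 most similar genes, the 5 neighbours on each side and at most 4 called genes per list and direction. The number of arrays limits precision.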

Additional observations from a re-analysis of the deposited data

Results flagged for a closer look

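In the 24 groups of 5 arrays formed by 6 lysozyme probes and 4 groups, 3 arrays stood far from the others of their group, where chance gives about 1 in 20. Lyz1 ILMN_2736867 on WT macrophage array 12 was at 10.27 on the normalized log2 scale, with the nearest array at 10.98. Lyz on WT macrophage array 14 was at 13.46, with the nearest at 13.61, a small distance on a bright probe. Lyz2 on Mbd2-/- monocyte array 8 was at 12.46, with the nearest at 13.38.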

How the results depend on the processing

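The number of arrays limits precision most for cDC1s, and spots near background depend on the offset. Lyz1 ILMN_2736867 kept its direction and its call, or lack of one, in the 6 comparisons of cell types under each setting run. The shift of Lyz1 against Lyz2 within arrays was 3.19 to 3.33 under other background or scaling choices. Median scaling moved the median of all tested probes by up to -0.45 and split the cDC1 genotype calls into 9 higher and 571 lower (134 and 200 otherwise). With it the cDC1 genotype difference of ILMN_2736867 was -0.50, that of Lyzs ILMN_2766780 was -0.11, the Mbd2-/- macrophage to monocyte difference of the latter was 0.14, and r of Atp5pb with Lyz2 was 0.94. With cyclic loess the Lyz difference of WT cDC1s from WT monocytes was 0.11, that of ILMN_1247933 between WT cDC1s and WT macrophages 0.13, and the cDC1 genotype differences of Lyz and Lyzs ILMN_2939681 were 0.0022 and 0.026. At an adjusted p under 0.01, Lyz2 in Mbd2-/- cDC1s against macrophages (-1.82) was not called. Without background correction 2 lysozyme probes were called between Mbd2-/- macrophages and monocytes in place of 1.

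List genes were counted over the lysozyme family, peptidoglycan, effector and transcription factor lists. Counts of called list genes were 9 between WT macrophages and monocytes, 2 between cDC1 genotypes, 1 between monocyte genotypes and 0 between macrophage genotypes. Without the minimum difference they were 20, 6, 2 and 3, and neighbours passed in 2 cases in each of WT macrophages against monocytes and cDC1s. For cDC1s the list count was 1 without background correction, with offset 50, with no filter, at an adjusted p under 0.01 or with array weights, and 0 with median scaling or with the groups fitted alone. For monocytes it was 0 without background correction, with offset 50 or with median scaling, and 2 with array weights. The cDC1 neighbour count, 1 otherwise, was 0 without background correction, with offset 50 or with the groups fitted alone. The cause was not tested.

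With 1 array left out, the Lyz2 difference ran from -1.55 to -0.54 between WT macrophages and monocytes, from -0.39 to 0.014 in Mbd2-/- mice, from -0.24 to 0.85 between WT cDC1s and macrophages and from -2.03 to -1.59 in Mbd2-/- mice. Called lysozyme probes were 1 to 2 between macrophages and monocytes of each genotype. ILMN_1247933 ran from -0.63 to 0.53 between WT cDC1s and macrophages. Between cDC1 genotypes ILMN_1247933 ran from -0.96 to 0.20, ILMN_2736867 from -0.094 to 0.50, Lyzs ILMN_2939681 from -0.32 to 0.057 and Lyzs ILMN_2766780 from -0.32 to 0.42. List counts ran from 0 to 4 in cDC1s, 1 to 3 in monocytes and 0 to 2 in macrophages. Which arrays belong together is not given in the sources used here, so no known pairing could be fitted. Label numbers that differ by 10, taken as a block, had a consensus correlation of 0.12 and changed no call. Using the negative control probes in place of detection p-values, the Lyzs probes in place of Lyz2 within arrays, and other scalings for the similar genes were choices made after seeing the data.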
